A study of Mus musculus with 5 samples.

Results

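Focal regions of trimethylation of lysine 27 on histone H3 (H3K27me3) were examined in dermal fibroblasts of late mouse embryos. These are short stretches of the genome marked in every library of the series, after those were dropped in which the genotypes' covered lengths stood apart by the limits given next. To find them, the peaks of the 4 deposited lists on the 19 autosomes were merged wherever they overlapped by at least 1 bp, which gave 47569 merged regions. Of these, 9810 held a peak in all 4 lists and 1857 of those spanned less than 4 kb. Regions were dropped where the smaller covered length of the knockout libraries was at least 2 times the larger of the WT libraries (177 regions), or where the smaller WT length exceeded the larger knockout length (113 regions). The remaining 1567 regions, here called focal, are 3.29% of all merged regions. The members were thus chosen by their length, by a peak in all 4 libraries and by the covered length of the knockout against that of WT, so their lengths and their values between genotypes are given as a description only.

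The series compared Kdm6b-cKO fibroblasts (replicates 3 and 4) with WT fibroblasts (replicates 7 and 9) by ChIP-seq, 1 peak list per library. In the knockout, floxed Kdm6b (Kdm6b fl/fl) was deleted by Cre from Dermo1, a gene active in embryonic mesenchyme, in mice that also carried the mTmG reporter, and the labels give a sort for GFP-positive cells for every sample, WT included. Both genotypes came from late embryonic skin on a C57BL/6 background, were expanded in culture and are labelled fibroblasts, and neither the source of the WT cells' GFP nor whether replicates came from separate embryos is given in the sources used here. Cre from this promoter does not act in all skin cells, and the deletion of Kdm6b cannot be checked from peak lists. Per the study's methods, reads were subsampled to a common depth, but the lists carry no read numbers, so no counting error can be given for a peak, and having 2 libraries of each genotype limits the precision.

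H3K27me3 is placed by Polycomb repressive complex 2 on genes kept silent, and it commonly lies over CpG-rich promoters of developmental genes. Such marking ranges from short patches around a single promoter to domains that span whole gene clusters. Kdm6b, also known as Jmjd3, removes the mark, and the longer shared regions (6613 regions of 4 kb or more that met the same rule) served here as the set with which the focal regions were compared.

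The focal regions that carry a gene start were often dense in CpG, the dinucleotide to which Polycomb complexes are recruited, while many of those without one were not. The stretches below are examples from both kinds. Each is the window of 200 bases with most CpG within the part covered in all 4 libraries, with annotated UTRs left out, read from the plus strand of GRCm38.p6 (mm10), and CpG is in capitals. The first stretches lie inside the genes, in the focal regions that hold the starts of Tac1 (chr6:7555618-7555817, with 11 CpG), Bmp6 (chr13:38345994-38346193, with 22 CpG) and Nanog (chr6:122707934-122708133, with 8 CpG).
Tac1: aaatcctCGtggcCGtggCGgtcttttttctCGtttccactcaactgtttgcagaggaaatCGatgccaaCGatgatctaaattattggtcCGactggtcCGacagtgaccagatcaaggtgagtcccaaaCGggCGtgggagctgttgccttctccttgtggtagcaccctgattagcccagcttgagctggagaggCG
Bmp6: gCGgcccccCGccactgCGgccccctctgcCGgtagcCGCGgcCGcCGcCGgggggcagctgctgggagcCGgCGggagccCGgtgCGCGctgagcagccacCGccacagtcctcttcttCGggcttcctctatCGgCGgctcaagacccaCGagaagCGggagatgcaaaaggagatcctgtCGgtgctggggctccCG
Nanog: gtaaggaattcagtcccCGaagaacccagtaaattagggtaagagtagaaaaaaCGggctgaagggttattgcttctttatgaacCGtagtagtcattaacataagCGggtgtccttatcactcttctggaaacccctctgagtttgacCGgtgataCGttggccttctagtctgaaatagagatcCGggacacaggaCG

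A further 3 stretches show what lies away from gene starts. The first is from the region over 25 kb from any start with the highest fold ratio in the library where it is lowest, nearest to Jak1 (chr4:101311995-101312194, with 4 CpG). The second is from the region with the largest common share, near Snrpe (chr1:133594501-133594700, with 0 CpG), and reads as a unit of 47 bases repeated head to tail, 97.4% identical from one copy to the next. The third is from the region with the highest deposited −log10 q (chr2:98666764-98666963, with 8 CpG), whose letters resemble the mouse major satellite, the repeat of pericentromeric heterochromatin. That region is not distant from genes, as it lies 85 bp from the start of Gm10800. The number of CpG does not separate the kinds in single stretches, as windows chosen in the same way had 7 CpG at Samd11, a member with a start, and 12 CpG in the distant region nearest to Plekhg6.
Near Jak1: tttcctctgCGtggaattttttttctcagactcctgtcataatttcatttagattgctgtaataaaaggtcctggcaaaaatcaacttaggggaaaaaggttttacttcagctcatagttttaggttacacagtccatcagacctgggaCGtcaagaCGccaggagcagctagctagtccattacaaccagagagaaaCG
Near Snrpe: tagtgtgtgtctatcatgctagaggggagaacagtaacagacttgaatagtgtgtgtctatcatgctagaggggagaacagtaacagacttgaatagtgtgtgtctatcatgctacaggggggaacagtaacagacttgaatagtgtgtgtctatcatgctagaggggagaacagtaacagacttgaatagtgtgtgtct
Satellite-like: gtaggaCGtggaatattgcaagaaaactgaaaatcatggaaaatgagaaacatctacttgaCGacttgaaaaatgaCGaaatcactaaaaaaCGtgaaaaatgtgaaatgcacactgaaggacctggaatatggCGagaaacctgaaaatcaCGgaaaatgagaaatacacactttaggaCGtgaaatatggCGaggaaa

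A protein-coding transcription start site (TSS, the gene-level start in GENCODE M21) lay in 156 focal regions (9.96%, 95% Clopper-Pearson interval 8.52% to 11.5%), which together hold the starts of 162 genes. Such intervals, here and below, take regions as independent draws and leave out differences between libraries. These 162 starts are 0.779% of the 20807 protein-coding starts on the autosomes, against 11.5% in longer shared regions. A start lay in 31.7% of longer shared regions, in 3.88% of regions under 4 kb found in both Kdm6b-cKO libraries alone and in 2.43% of all 3-kb windows of the autosomes. A longer region has more room for a start. Per Mb of region, focal regions held 35.1 starts, longer shared regions 28.2, the short regions of the knockout alone 21.4 and the autosomes 8.68. The share of regions with a start was thus lower for focal than for longer regions while the density of starts was not. With regions counted only if no more than 50% of their 31-base words recur in the genome, the share was 10.4%. Without WT replicate 9 the rule gave 2547 regions, 6.95% of them with a start, and with only peaks of −log10 q of 4 or more it gave 74, 33.8% of them with a start.

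The 162 genes were set beside 35 gene lists. Of 364 genes in the 8 lists of developmental transcription factors, 1 had its start in a focal region (Sox5, a factor of cartilage and neural development) and 218 had it in a longer shared region. A share of 0.779% leaves few focal starts in any list of this size, so low counts are not read as a property of a list. Hox genes, which pattern the body axis, had 0 of 39 starts in focal and 24 in longer regions, Forkhead factors 0 of 41 and 22, and T-box factors 0 of 16 and 9. In the lists of channels, neurotransmitter receptors and solute carriers, 16 of 544 starts were focal (2.94%) and 184 lay in longer regions. Of 282 starts of signalling genes, 3 were focal and 94 lay in longer regions, and of 201 starts of matrix and adhesion genes 3 were focal and 32 lay in longer regions. These lists were compared by their counts beside the share of all starts (0.779% focal and 11.5% longer), with no test. Of 35 lists, 13 had a start in a focal region and 22 had none.

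**Figure D1:**
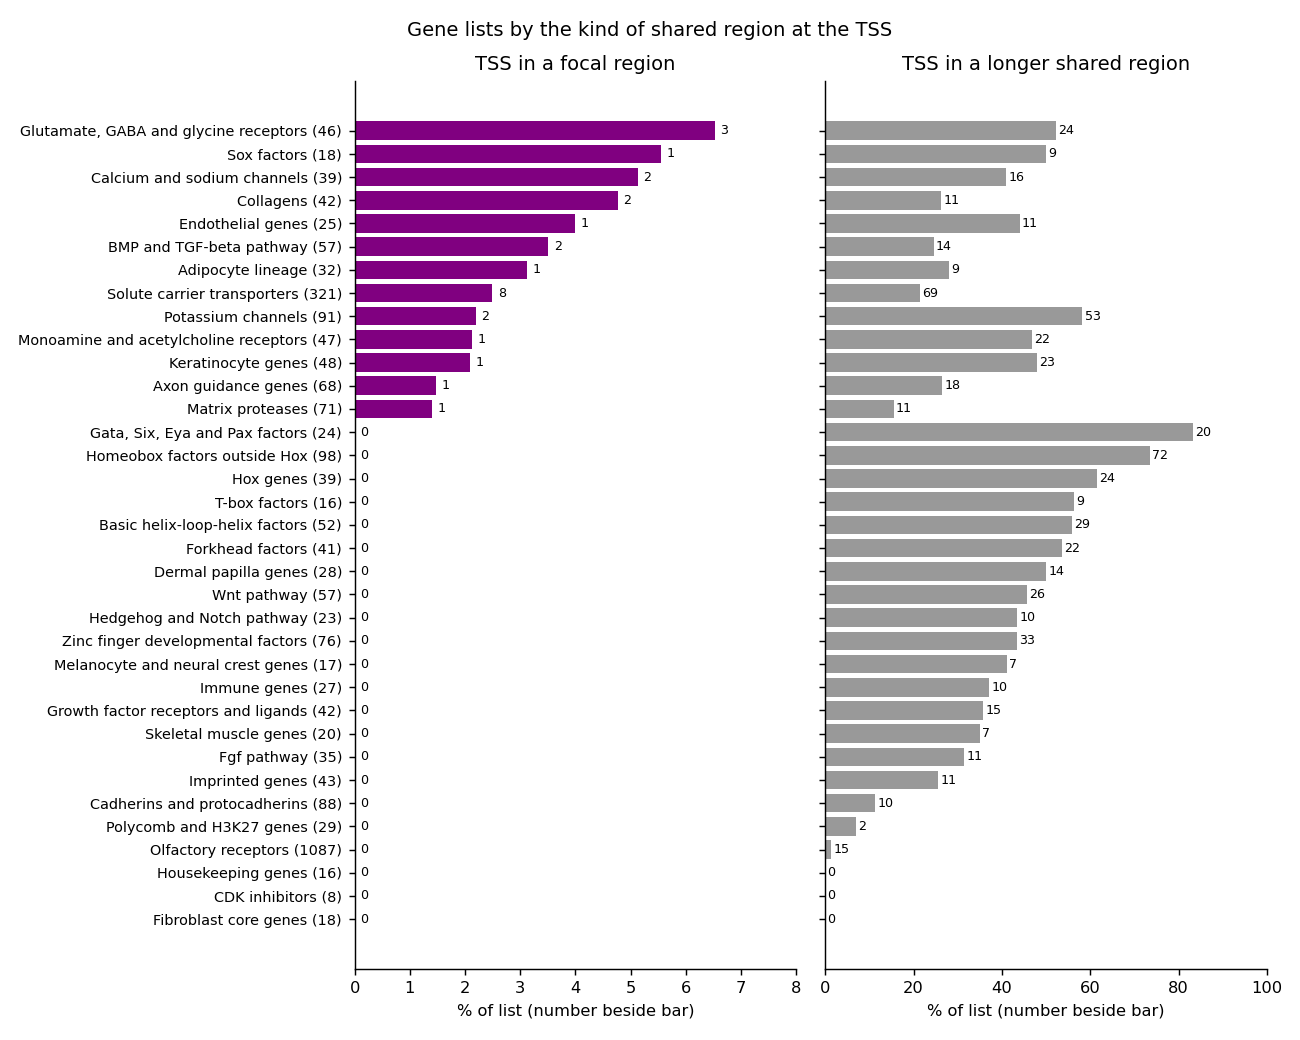
Share of each gene list whose TSS lies in a focal region (left panel, %) or in a longer shared region (right panel, %), with the number of genes beside each bar and the list size in parentheses, as a count with no test. The transcription factor lists hold 1 focal start, and the list of Gata, Pax and related factors has 20 of 24 starts in longer regions; the 2 panels have different scales.

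Several genes of neural signalling were members. Tac1, which encodes the precursor of substance P, had 3555 and 3265 bp covered in Kdm6b-cKO libraries 3 and 4 and 3930 and 2862 bp in WT libraries 7 and 9, in a region of 3930 bp (chr6:7553326-7557255). Its fold ratio over the local background, as deposited, was 4.60 and 4.14 in Kdm6b-cKO and 4.18 and 4.04 in WT. The libraries of both genotypes overlapped in both measures, and 2862 bp (72.8% of the region) was covered in all 4 at once. Penk, the precursor of enkephalins, had 2530 and 2971 bp covered in Kdm6b-cKO, against 3118 and 2566 bp in WT, again with overlap between the genotypes. Sstr4, a somatostatin receptor, had 1171 and 2623 bp in Kdm6b-cKO, against 601 and 328 bp in WT. The Kdm6b-cKO libraries were the higher ones there, and 283 bp was common to the libraries.

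Receptors for neurotransmitters were members too. Grm3, a metabotropic glutamate receptor, had 2346 and 1976 bp in Kdm6b-cKO, against 1507 and 2154 bp in WT, with fold ratios of 4.09 and 3.74 in Kdm6b-cKO and 3.57 and 3.25 in WT. The kainate receptor gene Grik2 had fold ratios of 2.82 and 2.82 in Kdm6b-cKO and 3.04 and 3.05 in WT, so both knockout values were the lower there. Glrb, the beta subunit of the glycine receptor, had 2094 and 1990 bp in Kdm6b-cKO, against 1983 and 872 bp in WT, of which 37 bp was common. Htr1f, a serotonin receptor, had 2710 and 1519 bp in Kdm6b-cKO, against 1595 and 692 bp in WT. Covered lengths overlapped between the genotypes at Grm3 and Htr1f, and at Glrb the shorter Kdm6b-cKO value was 1990 bp, just above the longer WT value of 1983 bp.

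Voltage-gated channels made up a further set. Kcnq5, a potassium channel, had 3606 and 3135 bp in Kdm6b-cKO, against 902 and 2697 bp in WT, and its region held 51.9 CpG per kb. Kcnh7, another potassium channel, had 2640 and 2318 bp in Kdm6b-cKO, against 922 and 1748 bp in WT. For both genes the Kdm6b-cKO libraries were above both WT libraries. The sodium channel gene Scn9a went the other way in part, with 1202 and 793 bp in Kdm6b-cKO, against 669 and 2067 bp in WT, and WT replicate 9, which had the shortest peak in most focal regions, had the longest one there. Syt4, a synaptotagmin of vesicle release, had 2633 and 1383 bp in Kdm6b-cKO, against 1609 and 1031 bp in WT. Npas4, a factor induced by neuronal activity, had 2380 and 2585 bp in Kdm6b-cKO, against 911 and 1287 bp in WT, with fold ratios of 4.31 and 4.13 in Kdm6b-cKO and 2.85 and 2.82 in WT. At Npas4 both measures were higher in both Kdm6b-cKO libraries.

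By count, solute carriers had the most focal starts of any list, 8 of 321 (2.49%), beside 0.779% of all starts. The list is large, and some smaller lists had higher shares, such as 3 of 46 glutamate, GABA and glycine receptors (6.52%). Slc5a8, a monocarboxylate transporter, had 3421 and 3690 bp in Kdm6b-cKO, against 2261 and 2263 bp in WT. Slc2a3, a glucose transporter of neurons, had 3262 and 3512 bp in Kdm6b-cKO, against 2878 and 3139 bp in WT, with 2865 bp common to all. The chloride channel gene Cftr had 2321 and 1426 bp in Kdm6b-cKO, against 2269 and 1872 bp in WT. Slc11a2, an iron transporter, had fold ratios of 3.26 and 3.31 in Kdm6b-cKO and 3.51 and 3.44 in WT. Lengths at Slc5a8 and Slc2a3 were higher in both Kdm6b-cKO libraries, those at Cftr overlapped, and the fold ratios at Slc11a2 were lower in both Kdm6b-cKO libraries.

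Slc2a3, Nanog and Gdf3 are neighbours on chromosome 6, each with its own focal region (chr6:122800823-122804334, chr6:122706079-122709137 and chr6:122608613-122611103). Nanog, a factor of pluripotent cells, had 2596 and 2803 bp in Kdm6b-cKO, against 2440 and 1941 bp in WT, and Gdf3, a TGF-beta family ligand of early embryos, had 1818 and 664 bp in Kdm6b-cKO, against 1414 and 667 bp in WT, with 10 bp common to all 4 libraries. Of the 156 regions with a start, 5 had another within 250 kb. Bmp6, a bone morphogenetic protein, had 3099 and 3151 bp covered in Kdm6b-cKO, against 2789 and 2043 bp in WT, with fold ratios of 5.23 and 4.86 in Kdm6b-cKO and 3.20 and 3.37 in WT. Neither the lengths nor the fold ratios of the genotypes overlapped there.

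Genes of the dermis and of other skin cells were counted in the same way, beside the 0.779% of all starts that were focal. None of 18 fibroblast core genes and none of 16 housekeeping genes had a start in a focal or a longer shared region, and of 28 dermal papilla genes 0 were focal and 14 lay in longer regions. Among markers of the other cell types a skin culture could hold, focal starts were those of 1 of 25 endothelial genes (Esam, an adhesion molecule of endothelium), 1 of 48 keratinocyte genes (Esrp2, an epithelial splicing regulator), and 0 of 27 immune, 0 of 17 melanocyte and neural crest and 0 of 20 skeletal muscle genes. In longer shared regions lay 11 endothelial, 23 keratinocyte, 10 immune, 7 melanocyte and neural crest and 7 skeletal muscle starts. A peak list holds no expression, so these counts say only where the mark lies. Of 32 adipocyte lineage genes 1 was focal, Pparg, the nuclear receptor that directs fat cell differentiation. At its most upstream start, Pparg had 498 and 1364 bp in Kdm6b-cKO, against 1093 and 1258 bp in WT (chr6:115360875-115362238). Fold ratios there were 2.91 and 3.08 in Kdm6b-cKO and 2.79 and 3.07 in WT, and the genotypes overlapped.

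Genes of metabolism and matrix were also members. Lepr, the leptin receptor, had 1054 and 1682 bp in Kdm6b-cKO, against 2264 and 373 bp in WT, so that the WT libraries lay on either side of both Kdm6b-cKO libraries. Vdr, the vitamin D receptor, had 3500 and 3316 bp in Kdm6b-cKO, against 2531 and 1606 bp in WT, so both knockout values were higher. Col14a1, a fibril-associated collagen of the dermis, had 3174 and 2963 bp in Kdm6b-cKO, against 3352 and 2684 bp in WT, and the genotypes overlapped. Col11a1, a cartilage fibrillar collagen, had 1625 and 1450 bp in Kdm6b-cKO, against 830 and 1616 bp in WT, and no base was covered in all 4 libraries at once. Thbs4, a thrombospondin, had 2313 and 2727 bp in Kdm6b-cKO, against 3176 and 289 bp in WT. Lama3, a laminin chain of epithelial basement membrane, had 2491 and 1948 bp in Kdm6b-cKO, against 1317 and 2040 bp in WT. Penk, Sstr4, Syt4, Npas4, Cftr, Nanog, Lepr, Vdr, Thbs4 and Lama3 are members that were named after their values were seen.

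**Figure D2:**
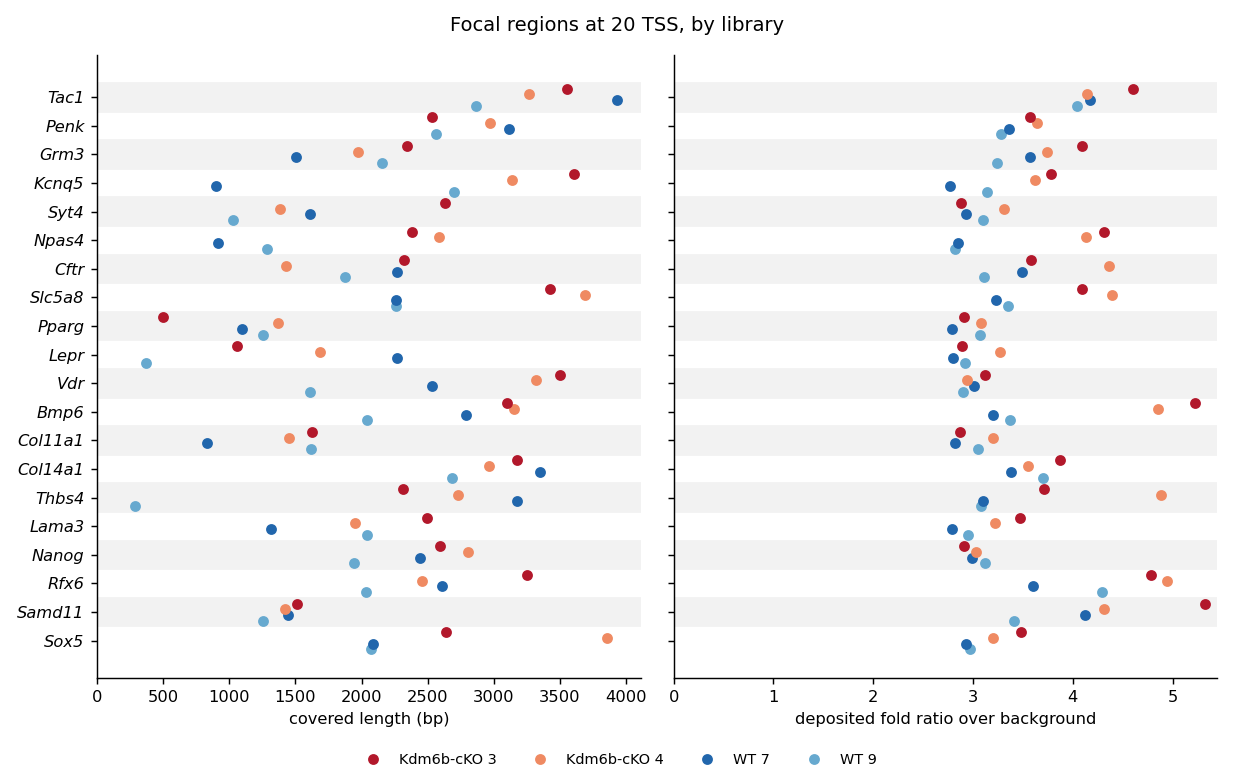
Covered length (left panel, bp) and deposited fold ratio over the local background (right panel) at 20 gene starts in focal regions, 1 point per library, Kdm6b-cKO replicates 3 and 4 in reds and WT replicates 7 and 9 in blues. The genes were picked for display after their values were seen; Bmp6 has 5.23 and 4.86 in Kdm6b-cKO and 3.20 and 3.37 in WT, while the fold ratios of Pparg and Nanog overlap between the genotypes.

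By the fold ratio in the library where it was lowest, the 12 leading members with a start were Tac1, Wdr86, Kbtbd11, Rfx6, Proser2, Rasd1, Ap1m2, Mtmr7, Lrat, Bicdl2, Cbs and Samd11. Rfx6, a factor of pancreatic endocrine cells that lies 339409 bp from the next shared region, had 3251 and 2459 bp in Kdm6b-cKO, against 2609 and 2034 bp in WT, with fold ratios of 4.79 and 4.95 in Kdm6b-cKO and 3.60 and 4.29 in WT. Ap1m2, an adaptor subunit of polarised epithelia, had 1805 and 1402 bp in Kdm6b-cKO, against 897 and 1236 bp in WT. Lrat, which esterifies retinol for storage, had 3784 and 3687 bp in Kdm6b-cKO, against 3366 and 1928 bp in WT. Cbs, an enzyme of homocysteine metabolism, had 2843 and 2542 bp in Kdm6b-cKO, against 2159 and 1218 bp in WT. For Samd11, the shortest of the 12 regions, the covered lengths were nearly alike, at 1515 and 1424 bp in Kdm6b-cKO, against 1445 and 1256 bp in WT. Mycn, a MYC family factor, would not count by its start, as its region (chr12:12938687-12941840) begins 74 bp inside the gene from the start. It had 3040 and 2996 bp in Kdm6b-cKO, against 3137 and 2871 bp in WT.

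Other genes that the study names from these samples or their motifs lay outside the set. Hes5, Rspo1, Eya2 and Zfp423 had their starts in longer shared regions. That of Hes5 spanned 19649 bp with 18666 and 18414 bp covered in Kdm6b-cKO, against 18630 and 16012 bp in WT. Rspo1 had 14878 and 22500 bp in Kdm6b-cKO, against 11081 and 5837 bp in WT. Eya2 had 28335 and 27480 bp in Kdm6b-cKO, against 21229 and 13135 bp in WT. Zfp423 had 8375 and 11709 bp in Kdm6b-cKO, against 12100 and 4987 bp in WT. Both Kdm6b-cKO libraries were above both WT libraries at Rspo1 and Eya2, and the genotypes overlapped at Hes5 and Zfp423. Ebf1, Tcf7l2, Med1 and Kdm6b had no peak at their starts in any list, and Cebpa had a pattern that met neither rule. The paper writes Tcf4/Tcf7l2 for a motif, and the gene with the symbol Tcf4 had no peak at its start either.

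Around the starts, more of the gene side than of the upstream side was covered. That coverage is highest near the starts is set by the choice of short regions that hold them. Of the 162 starts, 90.1% and 84.6% were covered by a peak in Kdm6b-cKO libraries 3 and 4 and 60.5% and 51.9% in WT libraries 7 and 9. The 2 kb downstream held more covered bases than the 2 kb upstream in every library, with means of 1300 and 1185 bp downstream in Kdm6b-cKO, against 1047 and 783 bp in WT, beside 1003 and 888 bp upstream in Kdm6b-cKO, against 675 and 506 bp in WT. The libraries had the same order at the start as in their median covered lengths, which the rule used. In regions with a start, the median covered share was 89.7% and 75.2% in Kdm6b-cKO and 59.8% and 43.6% in WT. The shares of starts covered are not independent of these lengths, so nothing is read from them between genotypes.

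**Figure D3:**
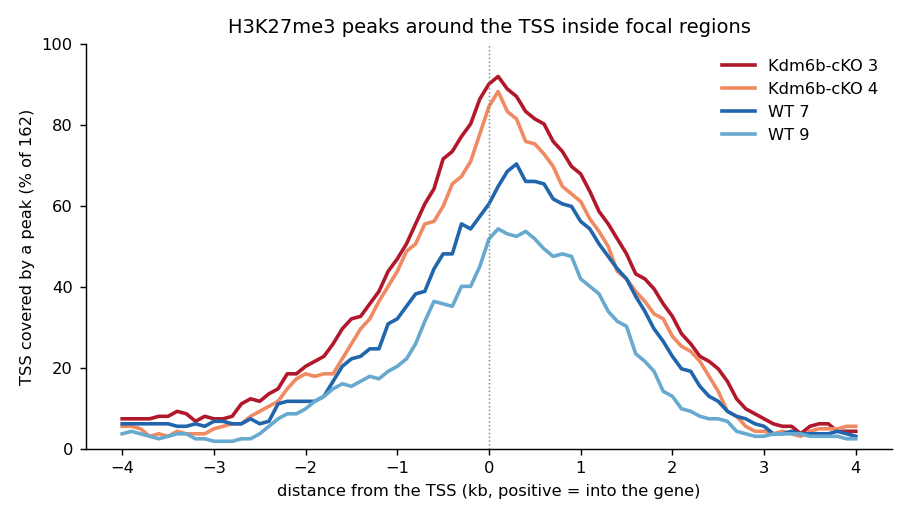
Share of the 162 protein-coding starts in focal regions that are covered by a peak (%), at each distance from the start (kb, positive into the gene), 1 line per library. Coverage is highest within 300 bp downstream of the start in all 4 libraries and falls below 10% beyond 3 kb on either side, a shape that the length limit sets.

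Composition separated members with a start from those without. Focal regions with a start had a median of 26.1 CpG per kb and 49.99% GC, and those without had 8.63 CpG per kb and 44.3% GC. Over all focal regions the medians were 9.17 CpG per kb and 44.6% GC, against 11.7 and 46.6% in longer shared regions and 7 and 41.5% in 3-kb windows. The focal median was 24.2 CpG per kb for the 74 regions left with only peaks of −log10 q of 4 or more. A CpG-rich window (500 bp with GC of 55% or more and an observed to expected CpG ratio of 0.65 or more) lay in 193 focal regions (12.3%), 31.95% of longer shared regions and 2.48% of 3-kb windows, a share that also grows with length. Of the focal regions with a start, 106 held such a window and 50 did not. A further 87 held a CpG-rich window with no protein-coding start, at a median of 28.3 CpG per kb, and 1324 held neither. Soft-masked repeats made up a median of 22.9% of a focal region and 22.8% of a longer one.

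**Figure D4:**
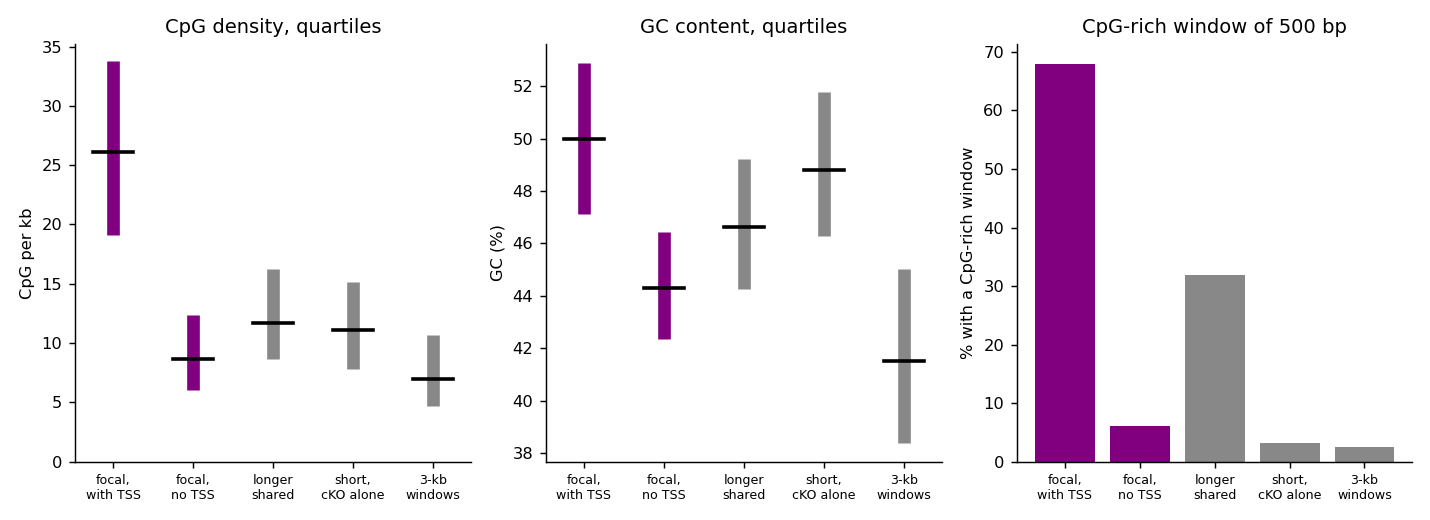
CpG per kb (left), GC content (%, middle) and share of regions with a CpG-rich window (%, right) for focal regions with and without a protein-coding start, longer shared regions, regions under 4 kb in both Kdm6b-cKO libraries alone and all 3-kb windows, with quartiles as bars and medians as lines in the first panels. Among the sets as drawn, focal regions with a start stand highest in CpG (median 26.1 per kb), and those without (8.63 per kb) lie near the windows (7 per kb). The other sets are not split by whether they hold a start, so this rank is not shown to be particular to focal starts.

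Short motifs were counted in 300-base windows centred on the part covered in all 4 libraries, or on the region where there was none. Both strands were searched, and a match is a description and no site. CGCG, which holds 2 CpG, was in 41.7% of windows of members with a start, 4.96% of those without, 12.97% of longer shared regions and 3.12% of all 300-base windows of the autosomes. Longer regions and autosomal windows were not split by whether they hold a start, so members with a start have no like set here. CCCNNGGG, a motif of the Ebf type, was in 15.4%, 5.88%, 9.59% and 4.81% of the same sets. ATCAAAG, a motif of the Tcf and Lef type, was in 3.85% of windows of members with a start and 5.95% of those of members without, against 6.07% of all windows. A window of a member with a start need not hold the start itself. GAGAGAGA was in 4.49% and 7.73%, against 5.18% of all windows. The motif counts are not independent of base composition, since CGCG and CCCNNGGG consist of G and C apart from the open bases.

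Members lay both within genes and between them. By the midpoint of the region, 57.1% were intergenic, 29.8% intronic, 5.04% exonic and 8.10% in other gene models, and of the 894 intergenic ones 49 held a start away from their midpoint. Of longer shared regions 51.5% were intergenic, and of the short regions of the knockout alone 50.9%. No protein-coding start lay within 25 kb of 687 focal regions (43.8%), and 358 (22.8%) had one within 3 kb. Over 25 kb from a start were 33.1% of longer shared regions and 54.6% of the short regions of the knockout alone. Within 3 kb were 41.5% and 11.1% of those sets, so focal regions lay between them. Distances were not taken for windows of the autosomes. The 5 focal regions over 25 kb from a start with the highest lowest fold ratio were nearest to Jak1, Plekhg6, Akap1, Snx2 and Kazn. The one near Jak1, a kinase of cytokine receptors, lies 45773 bp from its start (chr4:101311055-101314834) and had 3296 and 2868 bp in Kdm6b-cKO, against 3780 and 2171 bp in WT, with fold ratios of 5.60 and 4.24 in Kdm6b-cKO and 3.58 and 4.11 in WT. The one near Kazn lies 233531 bp from a start and had 3163 and 1813 bp in Kdm6b-cKO, against 2646 and 2499 bp in WT. In the region near Plekhg6, 56.3% of 31-base words recur in the genome, and in that near Jak1 37.3% do.

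Members with a start lay farther from other regions shared by all 4 libraries than those without, and peaks of fewer libraries were not counted. The nearest such region lay at a median of 81107 bp from members with a start and 12359 bp from those without. The median was 7652 bp for longer shared regions and 24769.5 bp for the short regions of the knockout alone. These sets were not split by whether they hold a start. Shared regions of 20 kb or longer lay within 10 kb of 90 focal regions (5.74%, interval 4.64% to 7.01%) and of 762 longer ones (11.5%). They lay as near to 324 of the short regions of the knockout alone (5.05%), so the lower share is not particular to focal regions. By chromosome the members numbered 40 on chromosome 16 to 116 on chromosome 1, or 4.07 per 10 Mb on chromosome 16 to 9.93 per 10 Mb on chromosome 19.

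Covered length at the focal regions differed more between libraries than the deposited fold ratio did. The fold ratio averages only bases already called as peaks at a threshold, which limits how far it can vary. Nothing about the extent or strength of the mark itself is read from this contrast. The merged regions spanned a median of 3077 bp (quartiles 2447 and 3555 bp), with a single peak per library in 94.3% to 96.6% of them. The median covered length was 2334 and 1771 bp in Kdm6b-cKO libraries 3 and 4 and 1723 and 1062 bp in WT libraries 7 and 9, and the mean over libraries was 2058 ± 340 bp in Kdm6b-cKO and 1487 ± 406 bp in WT (SD, n = 2 each), a difference of 571 bp. The spread within each genotype is large beside that difference. Kdm6b-cKO replicate 4 and WT replicate 7 lie close together, and WT replicate 9 is the lowest. Kdm6b-cKO replicate 3 had the longest stretch in 809 regions and WT replicate 9 the shortest in 873. Both Kdm6b-cKO libraries were longer than both WT libraries in 596 focal regions (38.0%) and in 3749 longer shared regions (56.7%), beside 57.3% of all 9810 shared regions. The reverse order, which the rule removed, was met by 3.65% of all shared regions. The rule used these lengths, so nothing is read from the shares.

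The fold ratio, a measure of strength over local background, had medians of 2.98 and 2.90 in Kdm6b-cKO and 2.96 and 3.02 in WT. It was 3.35 and 3.23 in Kdm6b-cKO and 3.18 and 3.21 in WT at longer shared regions, so focal regions were lower in 4 of 4 libraries. The sets were split by length, and weaker signal gives shorter peaks, so this difference is not independent of the rule and is given as a description. The difference was −0.36 and −0.34 in Kdm6b-cKO and −0.22 and −0.19 in WT, with a mean of −0.28 ± 0.09 (SD, n = 4 libraries), and −0.43 when WT replicate 7 was left out. The median −log10 q of focal peaks was 3.53 and 3.16 in Kdm6b-cKO and 3.27 and 2.93 in WT, against 4.84 and 4.33 in Kdm6b-cKO and 4.004 and 3.52 in WT at longer shared regions. Of focal regions, 205 (13.1%) reached a fold ratio of 3 in all 4 libraries, and of those with a start 57 (36.5%) did.

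Members with a CpG-rich window or a start had the higher ratios in each library. Focal regions with a start had medians of 3.32 and 3.40 in Kdm6b-cKO and 3.04 and 3.10 in WT, and those with a CpG-rich window had 3.43 and 3.45 in Kdm6b-cKO and 3.11 and 3.11 in WT. Without a start the medians were 2.97 and 2.88 in Kdm6b-cKO and 2.96 and 3.01 in WT. Both Kdm6b-cKO libraries were above both WT libraries for members with a start and not for those without, a contrast that was not tested, because these are the libraries the rule used.

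**Figure D5:**
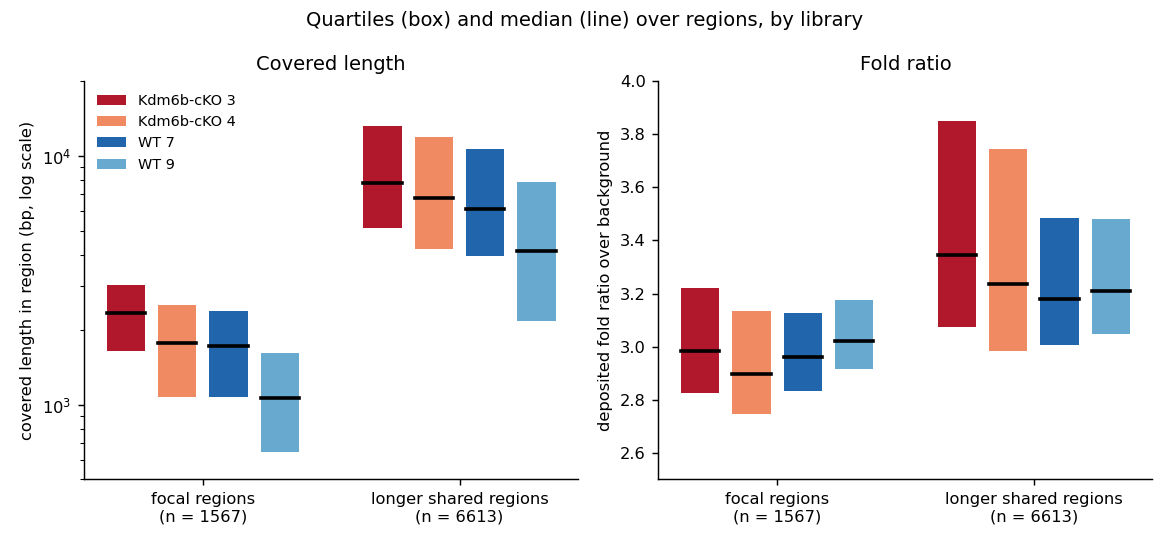
Covered length in the region (left, bp on a log scale) and deposited fold ratio (right, no unit) of focal and longer shared regions in each library, Kdm6b-cKO replicates 3 and 4 in reds and WT replicates 7 and 9 in blues, with quartiles as boxes and medians as lines. Covered length at focal regions has a median of 2334 and 1771 bp in Kdm6b-cKO, against 1723 and 1062 bp in WT, while their fold ratios, between 2.90 and 3.02, are below those of longer regions in each library.

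The peaks of any pair of libraries touched in 90.0% to 98.4% of focal regions, and a base was covered in all 4 libraries in 76.6%. The common part was short. A median of 416 bp (15.5% of the region) was covered in all 4 at once, against 3294 bp (37.7%) in longer shared regions, and in 366 focal regions (23.4%) no base was covered in all 4, against 327 longer ones (4.94%). In 12 of the 156 regions with a start no base was common. Between pairs of libraries, the shared bases were 39.4% to 55.3% of the union in focal regions and 57.1% to 80.3% in longer ones, values that unequal peak lengths also lower. The rank correlation of fold ratios over focal regions was 0.57 for the Kdm6b-cKO pair and 0.35 for the WT pair, and it was 0.89 and 0.79 for those pairs over longer shared regions. These correlations are across regions of the same libraries, which are not independent replicates, and a narrow range of values lowers them.

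The longest members spanned 3999, 3995 and 3993 bp and the shortest regions left out for length 4001, 4001 and 4003 bp. The member nearest the limit that doubling set, near Gm10320 on chromosome 13, had 2686 and 2549 bp in Kdm6b-cKO, against 1279 and 578 bp in WT, and the nearest dropped one, nearest to Ezh2 on chromosome 6, had 2837 and 2646 bp in Kdm6b-cKO, against 1308 and 437 bp in WT. The 10 kb on either side of a focal region had a mean of 3604 and 2838 bp covered in Kdm6b-cKO, against 2421 and 1411 bp in WT, and no peak at all in 25.4% and 30.4% of regions in Kdm6b-cKO and 35.7% and 50.4% in WT.

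A small part of the members was mostly repeated sequence. In 101 focal regions (6.45%), over 50% of the 31-base words occur more than once in the genome. The same held for 363 of the regions under 4 kb in both Kdm6b-cKO libraries alone (5.66%), so the share is not particular to focal regions. Words were not counted in longer shared regions or in windows of the autosomes. Reads in repeated sequence may be placed by chance among copies. The region near Snrpe whose tandem repeat is printed above had fold ratios of 4.43 and 4.55 in Kdm6b-cKO and 5.08 and 4.66 in WT, over 1590 and 1630 bp in Kdm6b-cKO, against 1630 and 1597 bp in WT. It was covered almost from end to end in all 4 libraries, and 93.8% of its words recur. The satellite-like region on chromosome 2 had fold ratios of 1.15 and 1.34 in Kdm6b-cKO and 1.19 and 1.502 in WT, and 68.9% of its words recur. In 9 members the lowest fold ratio was under 2, and 4 of these had over 50% recurring words. Whether copy number or placement of reads has a part in these values was not tested.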

How the data were processed

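The authors called H3K27me3 peaks separately in every library, with no pooling, using MACS2 in broad mode after the libraries had been subsampled to a like depth; how the input entered is not given in the sources used here, and the input was not used here. The submitters' processing notes name Bowtie2 2.3.5.1, SAMtools 1.9, MACS2 2.2.7.1, deepTools 3.5.1, bcl2fastq and the build mm10. For each deposited peak the lists give a display score, a fold ratio against local background and the −log10 of p and of q, all averages over the broad peak as the authors' caller gave them. The score and the −log10 p were not used. Peaks are called at a significance threshold, so a library with weaker signal or fewer reads gives fewer and shorter peaks, and a region near the threshold can change length with small changes in signal.

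From the lists, peaks overlapping by at least 1 bp were merged, and each region was given its covered length per library, the fold ratio as the mean over its peaks weighted by their length, and the bases covered in all 4 libraries at once. GC, CpG and 31-base words were read from GRCm38.p6, and starts and gene models from GENCODE M21. Groups came from the sample titles. The fold ratio of focal and longer shared regions was set for an exact sign-flip permutation test over the 4 libraries, which cannot give a two-sided p below 0.125 (p = 0.125 was obtained), and is given as a description, as are all other comparisons, with Clopper-Pearson intervals at 95% that cover the sampling of regions only. All 4 differences had the same sign, which alone sets p at this floor, so it measures no spread between libraries. Whether replicates were separate embryos is not given. The merging and the rule were tested on simulated data, where 400 of 400 planted regions came back with their kind. The planted peaks of a region began at the same base and had lengths clear of the limits. Regions joined from offset peaks were thus not tried, and the result checks plain cases only. Alternatives were other length limits, stricter peaks, equal numbers of peaks, other merging, a common base, the dropped regions kept, each library left out in turn and, added after the data were seen, leaving out repeated sequence.

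The members and the gene lists were chosen with earlier results of these data known. Named regions were the 12 with a start and the 5 without one within 25 kb with the highest fold ratio in the library where it is lowest, up to 4 members of each list by the same measure, those at the edges of the rule, the 5 with the largest share covered in all 4 libraries, and genes the study names from these samples. Scripts ran in Python 3.11.15 with numba 0.67.0, numpy 2.4.6, scipy 1.17.1, pandas 2.3.3 and matplotlib 3.10.9. A sequence that these choices would show is not reported here.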

Additional observations from a re-analysis of the deposited data

Results flagged for a closer look

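The X chromosome was left out of the rule, and 193 of its 1010 regions with a peak in all 4 libraries met the same conditions. They stand here because they are a signal in data outside the report's comparisons, with no explanation weighed.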

How the results depend on the processing

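No paired analysis was possible because the replicate numbers of Kdm6b-cKO (3 and 4) and WT (7 and 9) are not shared. The lower fold ratio of focal than of longer shared regions kept its sign in 14 of 14 alternatives, and the difference in covered length in 13 of 13, but the rule conditions both signs, so they are no sign of stability. The number of members, 1567 by the rule, was 724 with a limit of 3 kb, 2416 with 5 kb, 74 with only peaks of −log10 q of 4 or more and 805 with equal numbers of the strongest peaks per library. In those settings the share with a start was 7.73% at 3 kb, 33.8% with −log10 q of 4 or more and 15.8% with equal numbers, and 11.99% where a base common to all 4 libraries was required. Median GC was 48.7% with −log10 q of 4 or more, 45.5% with equal numbers and 45.7% in the common sequence of 200 bp or more; median CpG per kb was 24.2, 11.1 with equal numbers and 9.67 with a common base. The share near a long domain was 2.70% with −log10 q of 4 or more, 13.7% within 50 kb and 15.2% for domains of 10 kb or longer. The share with a start within 1 kb was 16.6%, within 3 kb 22.8%, and with all annotated genes 15.4%, which are wider definitions. Leaving out 1 library gave 1555 to 2547 members, a share with a start of 6.95% to 9.46%, GC of 44.6% to 45.6%, 8.65 to 9.62 CpG per kb, 4.76% to 5.79% near a long domain, a length difference of 497 to 718 bp and a fold ratio difference of −0.43, without WT replicate 7, to −0.28. Without WT replicate 9, the library with the shortest peaks, the members numbered 2547 and 6.95% held a start. The causes were not tested.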
